A study of Mus musculus with 18 samples.

Results

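AA465934 is a spliced noncoding RNA gene of the mouse, and the small nucleolar RNA (snoRNA) Snord7 lies inside one of its introns. It is described here by its single row in each of 2 liver count tables, 1 of 23337 gene symbols in the table of females and 1 of 38924 Ensembl gene IDs in the table of males (ENSMUSG00000093483.1). The gene was chosen from measured values: its level in one group of recipient mice stood far from all other females. Its changes between treated and control groups are therefore given as a description, with no test.

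The study asked how low-dose penicillin (LDP) in early life, or a gut microbiota shaped by it, bears on the liver. Liver RNA of 18 mice was sequenced, 1 library per mouse, with 3 mice in each of 6 groups, all aged 8 weeks and fed a high-fat diet (45% of kcal from fat). C57BL6J males and females received LDP from birth or no drug, were weaned at week 4 and began the high-fat diet at week 6. Germ-free Swiss Webster females, from an outbred stock, received no drug and were colonised at week 3 with microbiota of control or of LDP-treated female mice. The groups are LDP males (mice 8, 10 and 11), control males (5, 6 and 7), LDP females (39, 52 and 54), control females (29, 30 and 32), LDP-microbiota recipients (2, 5 and 8) and control-microbiota recipients (1, 3 and 7). The mice are separate animals, but cage, litter and microbiota donor are not given, so p-values measure the spread between these mice. The recipient groups differ from the C57BL6J groups in strain and microbial history at the same time, and from the LDP-treated groups in drug exposure too. Weeks of weaning and of the start of the high-fat diet are given here for C57BL6J mice only.

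SnoRNAs are short stable RNAs of the nucleolus, most of which are released from the introns of a host gene after splicing. Box C/D snoRNAs carry 2 short conserved motifs, box C and box D, and direct 2'-O-methylation of a target RNA at the base that pairs with the fifth guide base upstream of box D. Some hosts encode proteins of the ribosome or of its assembly. Others, such as the Snhg genes and Gas5, make a spliced RNA with no known protein, and such RNAs are often degraded by nonsense-mediated decay. Snord7 belongs to the C/D class and is known as a guide for U6, the spliceosomal small nuclear RNA.

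On the GRCm38 build, which is mm10, GENCODE M21 places AA465934 on the + strand at chr11:83291699-83294632 and annotates it as a processed transcript that hosts a noncoding RNA. It has 5 annotated transcripts of 308 to 471 bases, and their exons together cover 711 bases, which is also the gene length deposited in the male table. In the longest of its lincRNA transcripts, 383 bases after splicing, exon 1 spans chr11:83291699-83291833, exon 2 chr11:83291967-83292097 and exon 3 chr11:83294515-83294631. Snord7, at chr11:83294304-83294400, lies in the second intron (chr11:83292098-83294514, 2417 bases) and ends 114 bases before exon 3. The 3 exons of the host are shown first, since they are what the counts of AA465934 measure; capitals mark exon 3, the part that AI450353, another noncoding gene of this locus, overlaps. Snord7 follows, with the stretch just upstream of box D, where a C/D snoRNA carries its guide, in capitals. All sequences are from GENCODE M21, written 5′ to 3′ as DNA letters.
AA465934 exon 1: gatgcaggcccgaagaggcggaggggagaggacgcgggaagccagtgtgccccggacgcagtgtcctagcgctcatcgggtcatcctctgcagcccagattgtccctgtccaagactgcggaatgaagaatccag
AA465934 exon 2: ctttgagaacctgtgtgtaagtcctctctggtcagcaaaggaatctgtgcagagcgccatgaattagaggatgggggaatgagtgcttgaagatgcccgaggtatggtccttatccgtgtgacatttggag
AA465934 exon 3: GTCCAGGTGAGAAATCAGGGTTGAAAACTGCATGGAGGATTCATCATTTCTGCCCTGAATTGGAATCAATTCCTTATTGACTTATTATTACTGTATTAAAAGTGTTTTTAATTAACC
Snord7: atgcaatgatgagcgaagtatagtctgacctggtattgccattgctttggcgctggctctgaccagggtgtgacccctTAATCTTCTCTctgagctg

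In Snord7 the box C motif ATGATGA was found at bases 6 to 12 and the box D motif CTGA at bases 90 to 93, counted from the 5′ end. The word CTGA occurs 3 times in Snord7, and the last was taken as box D. The capitals are the 11 bases just before it, bases 79 to 89. AA465934 transcripts hold 757 distinct words of 31 bases, of which 14 also occur in annotated transcripts of other genes, and 2 of those 14 lie outside long runs of T or A. Near its 3′ end the gene overlaps the span of AI450353, a RefSeq noncoding gene at chr11:83293430-83294929 that has a row of its own in the female table and covers both Snord7 and the last exon of AA465934. How reads over shared bases were counted, and whether strand was used, is not given in the sources used here, so counts at these edges are uncertain.

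**Figure D1:**
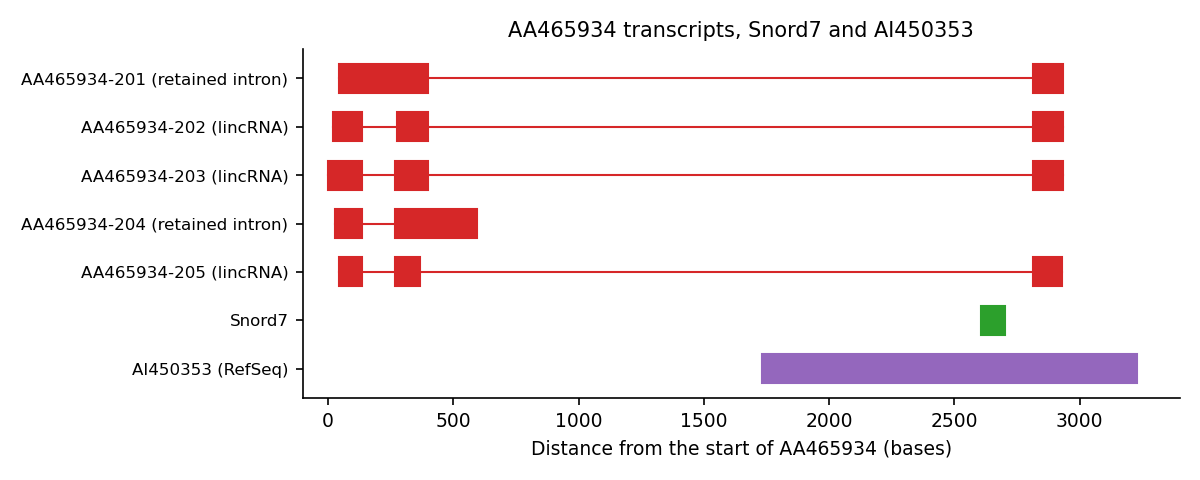
Exons (boxes) and introns (lines) of the 5 annotated AA465934 transcripts, with Snord7 and AI450353 as boxes, against the distance in bases from the start of AA465934. Snord7 sits in the long intron, 114 bases before the last exon, and AI450353 spans both Snord7 and the last exon.

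The libraries held 17937005 to 28646168 counts in the 12 females and 70336366 to 74418889 in the 6 males. The 8 hepatocyte markers checked were all detected in every group, and albumin alone took 9.87% to 14.4% of the counts in females and 5.82% to 8.22% in males. Levels below are CPM values, counts scaled by a library size that was adjusted by TMM. They are compared within a table and never between tables, because the tables use different gene annotations and split the mice by sex.

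AA465934 was high in the livers of the 3 LDP-microbiota recipients and low in those of every other female. Its counts in LDP-microbiota recipients 2, 5 and 8 were 70, 91 and 86, or 3.18, 4.98 and 3.21 CPM. In control-microbiota recipients 1, 3 and 7 they were 7, 6 and 9, or 0.354, 0.270 and 0.418 CPM. The 2 groups of recipients did not overlap, and mouse 5 was the highest of the 3 LDP-microbiota recipients. The means were 3.79 ± 1.03 CPM and 0.347 ± 0.0746 CPM (SD, n = 3 each), a ratio of 10.9. The fitted log2 difference was 3.41 (approximate SE 0.32, approximate 95% interval 2.78 to 4.04). In bulk liver RNA, more cells of a type that makes AA465934 and more AA465934 RNA per cell cannot be told apart.

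The spread within groups was small beside this gap. The lowest LDP-microbiota recipient stood 6.76 times above the highest of the other 9 females, whereas the highest and lowest values differed 1.56-fold among the 3 LDP-microbiota recipients and 2.56-fold among the other 9. Those 9 females had 4 to 11 counts each, 0.184 to 0.471 CPM, with a mean of 0.345 ± 0.0818 CPM (SD, n = 9). Of the 314 AA465934 counts of all 12 females, 247 (78.7%) came from the 3 LDP-microbiota recipients. The exact 95% Poisson interval of the lowest high count, 70, was 54.6 to 88.4, and that of the highest low count, 11, was 5.49 to 19.7. Such intervals cover counting error only, since reads amplified by PCR without molecular identifiers are not independent molecules. The gene was chosen for this gap, so neither interval is support for it.

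**Figure D2:**
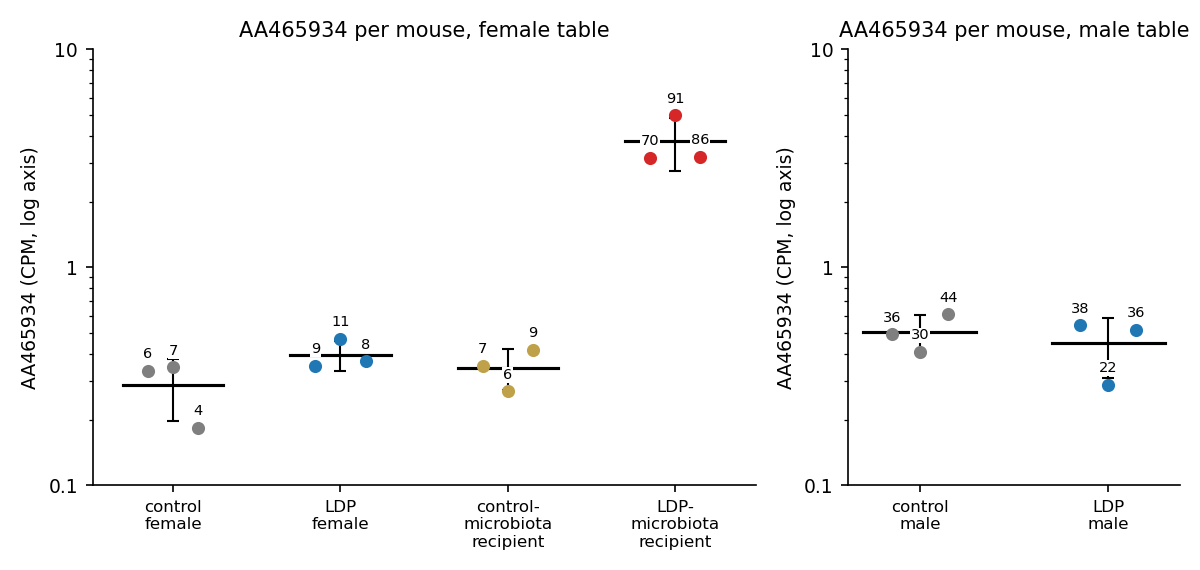
AA465934 in each mouse as CPM on a log axis, females on the left and males on the right, with the raw count above each point, a horizontal line at the group mean and error bars of 1 SD (n = 3). The LDP-microbiota recipients lie at 3.18 to 4.98 CPM and the other 9 females at 0.184 to 0.471 CPM, while the groups of males overlap.

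Among all genes tested in recipients, 1 of 12780 (0.00782%) passed the edgeR quasi-likelihood test at an adjusted p of 0.05, and that gene was AA465934. This call is part of what singled the gene out and is not support for it. In size, 1 gene had a larger fitted change, Cyp46a1, the brain-enriched cholesterol 24-hydroxylase, whose values in LDP-microbiota recipients spread from 22.4 to 158 CPM. A log2 change of 2 or more was fitted for 9 genes and one of −2 or less for 4, and the median change of all genes was −0.01. Groups did not overlap for 11.8% of the genes tested. AA465934 was called in 1 of the 6 fits that left out a mouse, the one without LDP-microbiota recipient 8, while its log2 change stayed between 3.18 and 3.58 in all 6.

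In mice that received penicillin themselves, no such gap was seen. For females this follows from the choice of the gene, which required LDP females and control females both to be low. Their values are a description and show nothing about the drug against the transferred microbiota. LDP females 39, 52 and 54 had 9, 11 and 8 counts of AA465934, or 0.353, 0.471 and 0.370 CPM. Control females 29, 30 and 32 had 6, 7 and 4 counts, or 0.335, 0.348 and 0.184 CPM. All 3 LDP females were above all 3 control females, but the nearest pair stood at 0.353 and 0.348 CPM, and 9.15% of the 12914 genes tested in females had groups that did not overlap. The means were 0.398 ± 0.0636 CPM and 0.289 ± 0.0909 CPM (SD, n = 3 each), with a log2 difference of 0.47 (approximate SE 0.41, approximate 95% interval −0.33 to 1.28). One count was worth 0.0373 to 0.0558 CPM in the female libraries, so these levels rest on a handful of reads, and AA465934 fell below the filter on low counts in this comparison. The difference between this change and that in recipients was not tested, because the gene was chosen for the latter.

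In males, whose libraries were deeper, AA465934 had 22 to 44 counts in each mouse. LDP males 8, 10 and 11 had 38, 22 and 36 counts, or 0.541, 0.289 and 0.517 CPM. Control males 5, 6 and 7 had 36, 30 and 44 counts, or 0.494, 0.409 and 0.610 CPM. The groups overlapped, and LDP male 10 was the lowest of the 6. The means were 0.449 ± 0.139 CPM and 0.505 ± 0.101 CPM (SD, n = 3 each), a log2 difference of −0.17 (approximate SE 0.33, approximate 95% interval −0.81 to 0.47). Its sign depended on that mouse: without LDP male 10 the log2 difference was 0.07.

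The control groups of the 2 experiments were then set against each other. The gene was chosen for a level far above that of all other females, so both of these groups had to be low, and their values are a description with no test. AA465934 averaged 0.347 CPM in control-microbiota recipients and 0.289 CPM in control females, and the 2 groups overlapped (27.9% of genes did not). The log2 difference was 0.27 (approximate SE 0.43, approximate 95% interval −0.57 to 1.11). Strain and microbial history are the same split here, so their shares cannot be told apart. In order of mean level, LDP-microbiota recipients were followed by LDP females, control-microbiota recipients and control females, and neighbours among the 3 lower groups overlapped.

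Snord7 itself was listed at 0 in all 12 females, where a count of 0 allows up to 3 counts per library. In males it had 8, 7 and 9 counts in control mice 5, 6 and 7 and 10, 6 and 3 counts in LDP mice 8, 10 and 11. AI450353, which has its own row in the female table, spans all of Snord7, and how reads over both were counted is not given. Snord7 is also only 97 bases long, and how well these libraries capture so short an RNA was not tested. For both reasons the female counts do not show whether Snord7 changed with its host. Of 110 Snord and Snora genes in the female table, 22 were at 0 in every library and 61 had at least 10 counts in all, and of 138 in that of the males 64 were at 0 and 60 had at least 10. The snoRNA gene with the most counts in females was Snord104, a box C/D snoRNA, with 53, 23 and 96 counts in LDP-microbiota recipients 2, 5 and 8 and 35, 60 and 78 in control-microbiota recipients 1, 3 and 7. Snora20, the next, was at 1.87 ± 0.555 CPM in LDP-microbiota and 1.74 ± 0.342 CPM in control-microbiota recipients (SD, n = 3 each). Both overlapped between the 2 groups of recipients. AA465934 did not, but it was chosen for that gap. Whether the rows of Snord104 and Snora20 measure the mature snoRNAs was not tested.

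The genes tested within 250 kb of AA465934 did not share its gap. Of 34 genes annotated within 250 kb, 17 were in the female table and 8 were tested in recipients. None of the 8 was called by edgeR (0.00782% of all genes tested passed) or by DESeq2. An unadjusted p under 0.05 was found for 0 (5.11% of all genes tested), and 0 had groups that did not overlap (11.8%). With 8 genes, counts of 0 are near these shares. DESeq2 gave AA465934 itself no adjusted p in recipients and in males, so neighbours of lower counts may have had none either. Genes without an adjusted p in DESeq2 are counted here and below as not called. The median log2 change of the 8 was 0.05, from −0.20 to 0.75, against −0.01 over all genes tested. Their smallest adjusted p was 0.846 (edgeR). The highest was AI450353, whose span overlaps the last exon of AA465934. AI450353 had 9, 14 and 22 counts in LDP-microbiota recipients 2, 5 and 8 and 4, 12 and 9 in control-microbiota recipients 1, 3 and 7. Its means were 0.666 ± 0.224 CPM and 0.387 ± 0.171 CPM (SD, n = 3 each), the groups overlapped, and its log2 change was 0.75 (approximate SE 0.46).

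Ap2b1, the beta subunit of the AP-2 clathrin adaptor, had a log2 change of −0.12, and Taf15, an RNA-binding protein linked to the general transcription factor TFIID, one of 0.05. Among genes of immune cells at this locus, the Schlafen genes Slfn2 and Slfn1 had log2 changes of 0.15 and −0.20, and the chemokine gene Ccl5 one of −0.04. The noncoding gene AI662270 stood at 0.15. In females treated with LDP, 9 neighbours were tested, and edgeR and DESeq2 called 0 of them, with 0 at an unadjusted p under 0.05. Over all 12914 genes tested in females edgeR called 0 and DESeq2 14, and 4.52% had an unadjusted p under 0.05. In males 12 were tested and neither tool called any, while 0.00648% of all 15438 genes tested passed. An unadjusted p under 0.05, found for 5.23% of all genes, was found for 2 of the 12, Slfn1 (log2 change −0.64) and Slfn4 (−0.78).

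**Figure D3:**
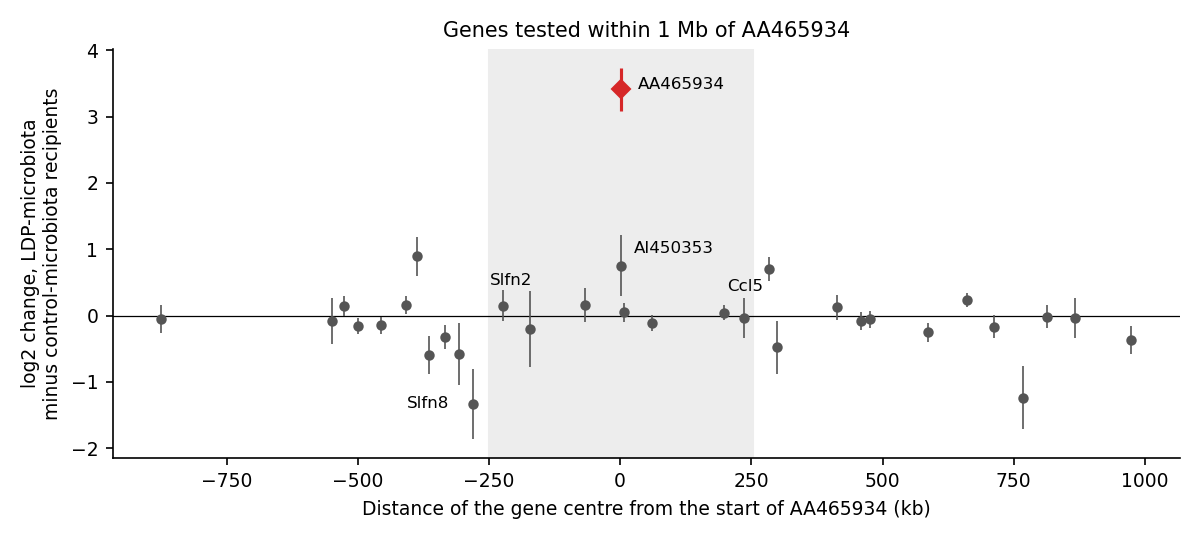
Log2 change in LDP-microbiota against control-microbiota recipients, with bars of 1 approximate SE, for the genes tested within 1 Mb of AA465934 against the distance of each gene's centre from its start in kb; the shaded band marks 250 kb on either side. AA465934 (diamond) stands at 3.41, and the 8 tested neighbours in the band lie between −0.20 and 0.75. All 31 neighbours tested within 1 Mb lie between −1.34 and 0.90.

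Other noncoding hosts of snoRNAs were not called with AA465934. Of 25 such genes listed, 12 were tested in recipients; edgeR and DESeq2 called 0 (0.00782% of all genes passed in edgeR), and 2 had an unadjusted p under 0.05, against 5.11% of all genes tested. The change was positive for 9 of the 12, with a median log2 change of 0.26 (−0.38 to 0.44) against −0.01 over all genes tested. Snhg1 was at 19.1 ± 2.75 CPM in LDP-microbiota and 14.0 ± 2.31 CPM in control-microbiota recipients (SD, n = 3 each), a log2 change of 0.44 (approximate SE 0.16). Snhg8 had a log2 change of 0.32 (approximate SE 0.13) and Gas5, a host of several box C/D snoRNAs, one of −0.38 (approximate SE 0.18). In LDP females 13 noncoding hosts were tested, with a median of 0.08 and 0 called by either tool. Of the 13, 4 had an unadjusted p under 0.05, against 4.52% of all genes tested, among them Snhg1 (0.37), Snhg5 (0.44) and Snhg12 (0.34). In males 14 were tested, with a median of 0.06, and 0 were called by either tool or had an unadjusted p under 0.05.

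Protein-coding hosts had small changes beside that of AA465934. Of 39 tested in recipients, 30 had a positive change, the median log2 change was 0.15 (−0.86 to 0.59), 0 were called by edgeR or DESeq2 and 1 had an unadjusted p under 0.05, against 5.11% of all genes. That gene was Nop58, a core protein of box C/D particles that also hosts snoRNAs, with a log2 change of 0.41 (approximate SE 0.18). The next by p were Wdr43, a ribosome biogenesis factor, at 0.29, and the ribosomal protein gene Rpl12 at 0.59.

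Genes for the proteins that build and use a snoRNA such as Snord7 were read in the same fit, and edgeR and DESeq2 called none of them in recipients. The shares below with an unadjusted p under 0.05 stand against 5.11% of all genes tested. Of 15 genes for the core and assembly of C/D particles, 13 had a positive change, with a median log2 change of 0.19 and 1, Nop58, at an unadjusted p under 0.05. Nhp2l1, which binds the fold formed by boxes C and D, had a log2 change of 0.30, and Pih1d1, of the assembly machinery, one of 0.22. Of 8 genes of H/ACA particles, which guide pseudouridylation instead, the median was 0.08 and 1 had an unadjusted p under 0.05, Gar1 (0.51). Of 12 factors that mature or bind U6, the target of the Snord7 guide, 6 had a positive change, the median was 0.04 and 0 had an unadjusted p under 0.05. Among them were Lsm2 (0.22) and Lsm5 (−0.48) of the ring that binds the end of U6, and the U6 methyltransferase Mettl16 (0.17).

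RNA decay genes gave no call by either tool in recipients. The 15 tested genes of nonsense-mediated decay had a median log2 change of −0.12, 5 positive changes and 0 at an unadjusted p under 0.05, with the kinase Smg1 at −0.49. The 20 genes of the nuclear exosome and snoRNA trimming had a median of 0.06 and 1 at an unadjusted p under 0.05, the poly(A) polymerase gene Papd7 (−0.29). Of 12 other noncoding RNAs known from liver, 0 were called, the median was −0.14 and Neat1, the scaffold of paraspeckles, stood at −0.46 with an unadjusted p under 0.05. The smallest adjusted p in each of these 8 lists in recipients was 0.846 (edgeR).

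**Figure D4:**
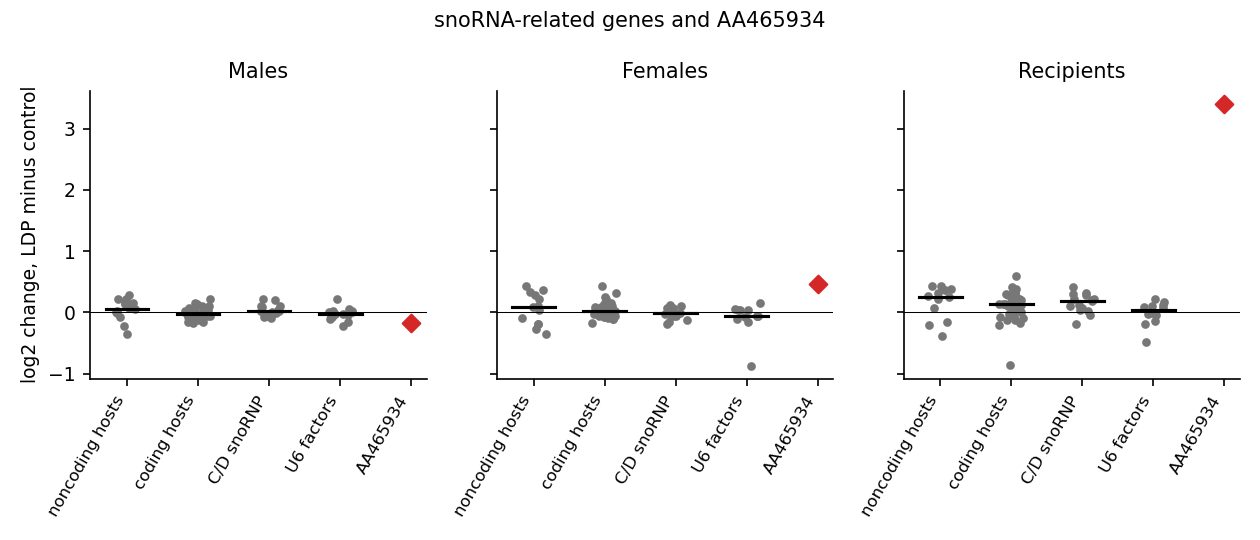
Log2 change of each tested gene (points) of 4 lists and of AA465934 (diamond), with the median of each list as a line, for males, females and recipients, LDP or LDP microbiota against control. In recipients AA465934 stands at 3.41 and the points of the 4 lists lie between −0.86 and 0.59.

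Between the control groups of the 2 experiments, 1086 of 12871 genes (8.44%) passed in edgeR's test. Of the snoRNA hosts, 1 of 13 noncoding and 4 of 39 protein-coding genes passed, shares near that background. The noncoding host Snhg11 was lower in control-microbiota recipients than in control females, by a log2 change of −4.60 (adjusted p = 0.00327, edgeR). The 4 protein-coding hosts that passed were lower too and included Rpsa (log2 change −2.59, adjusted p = 2.4e-05, edgeR), a component of the small ribosomal subunit with many near-identical copies whose reads may be split, and Hspa8 (log2 change −1.83, adjusted p = 0.00117, edgeR), a chaperone gene that hosts box C/D snoRNAs. Yet 7 of the 13 noncoding and 21 of the 39 protein-coding hosts tested had a positive log2 change. These reached 1.48 and 3.31, and edgeR called none of them.

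Markers of other cells were set beside the gap in AA465934. The summed level of the 8 hepatocyte markers was 170000 to 202000 CPM in LDP-microbiota recipients and 132000 to 171000 CPM in control-microbiota recipients, a sum of which albumin is the largest part. Of the 8 markers 4 had a positive and 4 a negative log2 change, with a median of −0.02. EdgeR and DESeq2 called 0 of them (0.00782% of all genes passed in edgeR), and 0 had an unadjusted p under 0.05 (5.11%). Cyp2e1, Ttr and albumin were higher in LDP-microbiota recipients with no overlap between the groups, at log2 changes of 0.23, 0.26 and 0.27. The other markers overlapped, and 11.8% of all genes tested did not. The 6 Kupffer cell markers with a row in the female table summed to 462 to 532 CPM against 413 to 598 CPM, and the 5 lymphocyte markers to 1.96 to 2.68 CPM against 1.81 to 2.52 CPM. The 4 adipocyte markers reached at most 0.0455 CPM in LDP-microbiota recipients, with Plin1, Cfd and Lep at 0, and the 4 exocrine pancreas markers at most 0.0547 CPM, with Cpa1 and Pnlip at 0. Any part of the difference in summed hepatocyte markers in the level of AA465934 was not tested.

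The genes whose pattern was most like that of AA465934 were ranked by Pearson's r of log2 CPM over the 12 females, after the mean of each experiment was subtracted, among 12512 genes. The r values describe these libraries, and they are carried by the split of the recipients that AA465934 was chosen for. The first was Commd1, a gene of copper export also on chromosome 11 but far from AA465934, with r = 0.925. Commd1 was at 36.8, 43.4 and 39.4 CPM in LDP-microbiota recipients 2, 5 and 8 and at 29.2 to 31.1 CPM in the 3 control-microbiota recipients. Like AA465934 it was highest in mouse 5, though its log2 change was 0.39. Thnsl2, a threonine synthase-like gene on chromosome 6, followed with r = 0.911 and a log2 change of 0.78, at 62.8 ± 3.19 CPM against 36.4 ± 2.84 CPM (SD, n = 3 each). Cadm3, a cell adhesion gene, had r = 0.887 and a log2 change of 0.68, Cyp46a1 had r = 0.882 and a log2 change of 4.93, and 2310047M10Rik had r = 0.878 and a log2 change of 0.27.

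None of these 5 was called in recipients by edgeR, with adjusted p of 0.846 for Commd1, Cadm3 and 2310047M10Rik, 0.777 for Cyp46a1 and 0.256 for Thnsl2. Among the 6 C57BL6J females alone, where AA465934 moved over a few counts, r was 0.139 for Commd1, 0.163 for Thnsl2, 0.137 for Cadm3, 0.0742 for 2310047M10Rik and −0.463 for Cyp46a1. Over the 6 males it was 0.759 for Commd1, 0.702 for Thnsl2, 0.353 for Cyp46a1 and −0.584 for Cadm3. For Cadm3 and Cyp46a1 the sign of r differed between these sets of mice. Each of these r values rests on 6 mice, and neither the values nor their differences were tested.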

How the data were processed

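The deposited values are raw read counts per gene, in a table for 12 females and another for 6 males, with 1 column per mouse. Per the submitters' processing notes, the tools were featureCounts 1.4.3-p1, HTSeq 0.5.3p9, STAR 2.3.0e and DESeq, on mm10, with no role given. Extraction used RNeasy Mini columns and library preparation TruSeq v2 RNA reagents, per the labels' protocols, which do not mention strand. Of 38924 male gene IDs, 37607 (96.6%) had a symbol in GENCODE M21.

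Each comparison was fitted over all genes on its own 6 libraries with edgeR 4.0.16 in R 4.3.3 (TMM, filterByExpr with a minimum count of 10 and total of 15, robust quasi-likelihood F test, Benjamini-Hochberg adjusted p under 0.05). AA465934 fell under that filter in females and between the control groups, and was added back to those fits for its value. Each SE is approximate, derived from the F value. The code was tested on simulated data. The genes changed in it were drawn from those of higher mean count than AA465934, so it does not cover a gene of so few counts. Likeness used log2 CPM with a prior count of 2.

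The gene, the 8 pathway lists, the 10 marker lists and the tests were chosen with earlier results of these data known. Genes named are those tested within 250 kb, up to 3 members of each list by smallest p, up to 5 snoRNA genes of most counts and the 5 most like AA465934; not all of them are given. Some genes stand in more than 1 list (Nop58, Gas5 and Snhg11 among them). Alternatives were DESeq2 1.42.0, other scaling factors, other filters, a fit that is not robust, all 12 female libraries sharing the spread, other distances, Spearman's rho and leaving out each mouse.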

Additional observations from a re-analysis of the deposited data

How the results depend on the processing

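The log2 change of AA465934 in recipients lay between 3.18 and 3.58 when each mouse was left out. Under the other alternatives it lay between 3.41 and 3.44. The fits that left out a mouse called it in 1 of 6. Of the other alternatives edgeR called it in 6 of 6 that gave an adjusted p, and DESeq2 gave none. These calls come from the libraries that singled AA465934 out and are not support for it. Leaving out a mouse moved its change to between 0.22 and 0.63 in females, −0.33 and 0.07 in males, and 0.02 and 0.43 between the control groups. A filter at a mean of 1 CPM removed AA465934 from those 3 comparisons, so it gave no value there. With no filter on low counts, edgeR called 2 genes in males, 1 in females and 2 in recipients, in place of 1, 0 and 1; DESeq2 called 42, 14 and 28, and the fit in which all 12 libraries share the spread called 3 in recipients. Beside the 0 called in females, 584 genes had an unadjusted p under 0.05. With each mouse left out the calls ranged from 0 to 66 in males (66 without LDP male 11), from 0 to 1 in females (1 without LDP female 39), from 0 to 4 in recipients (0 without control-microbiota recipient 1 or LDP-microbiota recipient 5, 4 without LDP-microbiota recipient 8) and from 559 (without control female 30) to 1669 (without control-microbiota recipient 7) between the control groups, in place of 1086. Within 1 Mb, a distance chosen after seeing the data, 31 neighbours of AA465934 were tested in either comparison. Between the control groups 3 were called by edgeR, near the 8.44% of all genes. In recipients 0 were called (0.00782% of all genes), 4 had an unadjusted p under 0.05 (5.11%) and 7 had groups that did not overlap (11.8%). Their log2 changes in recipients ran from −1.34 to 0.90. Ranked by Spearman's rho, 2 of the 5 genes most like AA465934, Commd1 and Thnsl2, stayed among the first 5. The causes of these shifts were not tested. No paired analysis was possible because the groups compared share no mouse numbers in the labels. Counts of 4 to 11 in 9 of the 12 females limit what can be said of AA465934 there, and 3 mice a group limit every comparison.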
